A study of Mus musculus with 20 samples.

Results

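The genes described here carry proteins between the endoplasmic reticulum (ER) and the Golgi apparatus. They were taken from a list of 45 symbols, chosen with earlier results of these data known. All were found among the 24421 gene symbols counted in this series. The list holds 14 genes of the COPII coat and its assembly and 9 subunits of the COPI coat. It also holds 4 genes for the GTPases that recruit COPI and their exchange factor (counted together), 12 cargo receptors, and 6 tethers and SNAREs. Of these, 44 had enough reads to be tested. Sec16b, a scaffold of ER exit sites, did not, with 0 to 3 reads in each library.

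Secretory and membrane proteins leave the ER in vesicles formed by the COPII coat, in which the GTPase SAR1 recruits the inner layer of SEC23 and SEC24 and the outer layer of SEC13 and SEC31. SEC24 binds cargo directly or through receptors such as LMAN1, SURF4 and the TMED (p24) proteins. Vesicles are caught by tethers such as USO1 (p115) and fuse through SNAREs, and the COPI coat, recruited by ARF GTPases, returns receptors and escaped ER residents to the ER, the latter through KDEL receptors. When misfolded proteins accumulate in the ER, sensors in its membrane start the unfolded protein response, a transcriptional program whose best known targets are ER chaperones and whose factors include XBP1, ATF6 and ATF4.

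RNA came from motor neurons differentiated from mouse embryonic stem cells, as NIL cells, which the labels call spinal, or NIP cells, which they call cranial; in the field the abbreviations stand for the transcription factor sets Neurog2-Isl1-Lhx3 and Neurog2-Isl1-Phox2a. From day 2 of culture, cells received 20 µM cyclopiazonic acid (CPA), an inhibitor of the SERCA calcium pump of the ER and so an inducer of ER stress, or no CPA. Each line has 5 groups, namely untreated at 0 h, 12 h and 36 h and CPA-treated at 12 h and 36 h, with 2 libraries per group and 20 in all. Times follow the sample titles, while the treatment text gives 0, 6 and 12 h. Whether the replicates were separate cultures is not stated, and the tests rest on the spread between these libraries alone, which may be technical.

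Gene reads per library ran from 7996454 to 30321152. Rn45s, the ribosomal RNA precursor, took 5.18% to 38.6% of gene reads, and untreated NIP 36 h replicate 1 and CPA-treated NIL 36 h replicate 2 stood apart at 38.6% and 38.3%. Hspa5, which encodes the ER chaperone BiP and served as the treatment check, was at 305 to 693 CPM (a gene's reads scaled to a common library size, with TMM factors) in the 12 untreated libraries and at 1251 to 4482 in the 8 CPA libraries. All 17 listed neuron and motor neuron markers were detected, although Lhx3 had a median of 0 CPM in NIP. The summed level of that list was lower with CPA in every line, time and replicate set, by a log2 ratio of -0.31 to -1.08. Among 13 listed markers of endoderm and endothelium, Col4a1, Lama1, Lamb1 and Col4a2 were abundant, with medians of 1224, 1103, 783 and 729 CPM. The others had medians from 0.69 CPM (Pecam1) to 51.4 (Gata4), so the sum of the list rests mainly on the abundant ones. The 13 genes summed to 431 to 32270 CPM, with a median of 1928 CPM in libraries of replicate number 1 (set 1) and 9285 in those of number 2 (set 2). In bulk RNA, fewer cells of a type and less RNA per cell cannot be told apart.

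CPA raised the RNA of cargo receptors, of COPII genes and of tethers and SNAREs, and of few COPI genes. Averaged over both lines and both times, 25 of 44 members were higher with CPA and 0 lower at an adjusted p under 0.05 (edgeR's quasi-likelihood test, Benjamini-Hochberg), where 9.84% of all 14792 tested genes were higher and 11.3% lower. The median log2 change of the members was 0.39, against 0.00 over all tested genes. Because the members were chosen with earlier results of these data known, the excess over all genes is a description and not independent support. By class, 10 of 12 cargo receptors were higher (median 0.79), 8 of 13 COPII genes (0.40), 5 of 6 tethers and SNAREs (0.47), 2 of 9 COPI coat subunits (0.22) and 0 of 4 COPI GTPases and exchange factor (0.00). With the replicate number as a block in the model, 29 members were higher and 1, Arf5, was lower, where 18.2% of all genes were higher and 20.7% lower. The block added Kdelr1, Kdelr3, Arcn1 and Copz2 to the higher members.

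**Figure D1:**
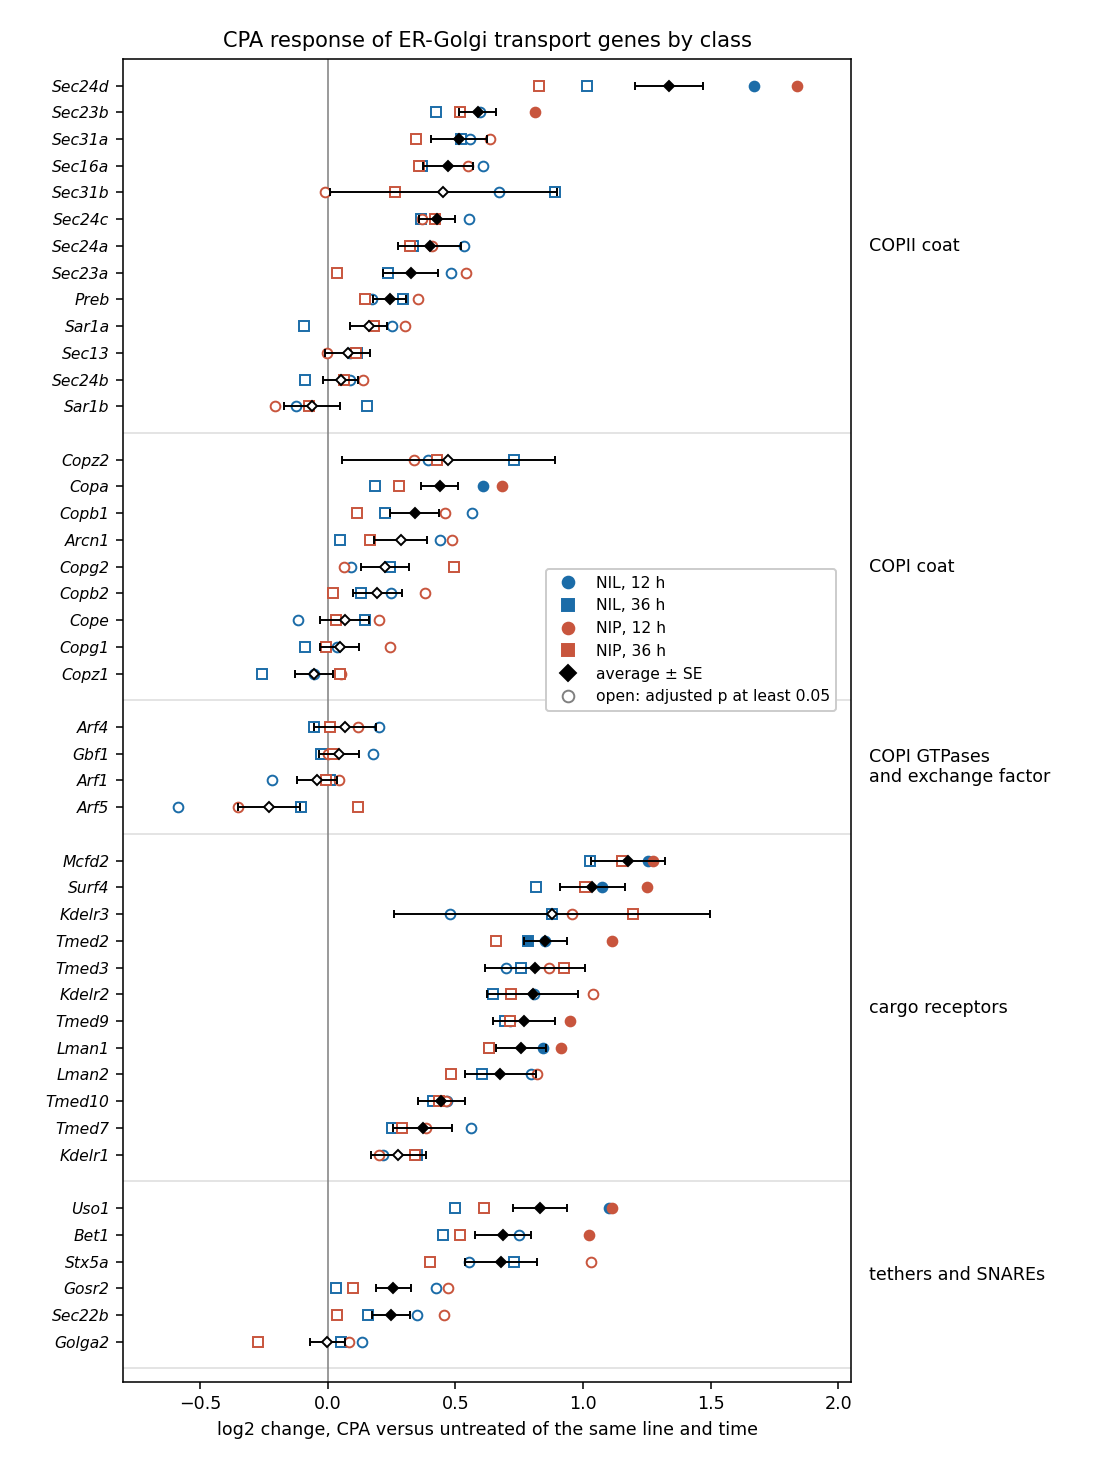
Log2 change with CPA for each of the 44 tested members, by class; circles are 12 h and squares 36 h, blue NIL and red NIP, filled where the adjusted p was under 0.05, and black diamonds give the average ± SE. The cargo receptors lie to the right of 0 throughout, with Sec24d farthest right of all members at 12 h, while the GTPases and their exchange factor sit around 0.

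In summed level, the 12 cargo receptors together held 879 to 1415 CPM in the 12 untreated libraries (median 1039) and 1453 to 2032 in the 8 CPA libraries (median 1701). The 2 ranges did not overlap. COPII genes summed to 1088 to 1277 CPM untreated and 1387 to 1825 with CPA, also without overlap. COPI coat subunits summed to 1216 to 1426 CPM and 1222 to 1973 CPM, and the GTPases with their exchange factor to 733 to 863 and 714 to 885, so that both overlapped. The tethers and SNAREs went from 381 to 425 CPM to 427 to 666 CPM.

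The start regions of members are shown for those with the largest changes, since promoters of ER stress genes hold known elements. A promoter was present in the RefSeq table (GRCm38.p6) for 40 of the 45 members, with 46 windows of 250 bases before to 50 after the start. Lman1, Tmed2, Tmed7, Arcn1 and Kdelr2 had none. Each line gives the 120 bases just before the start on the gene's strand, 5′ to 3′. Capitals mark GACGTG, the core letters of the unfolded protein response element, or its reverse complement, and in Hspa5 the ER stress response element (CCAAT, 9 bases, CCACG).
Sec24d (chr3:123267376-123267495, plus strand): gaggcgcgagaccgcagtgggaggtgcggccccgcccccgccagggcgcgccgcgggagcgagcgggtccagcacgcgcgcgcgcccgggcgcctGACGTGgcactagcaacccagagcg
Mcfd2 (chr17:87265948-87266067, minus strand): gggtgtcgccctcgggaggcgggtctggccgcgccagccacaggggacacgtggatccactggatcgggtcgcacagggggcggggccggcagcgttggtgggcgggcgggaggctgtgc
Surf4 (chr2:26933512-26933631, minus strand): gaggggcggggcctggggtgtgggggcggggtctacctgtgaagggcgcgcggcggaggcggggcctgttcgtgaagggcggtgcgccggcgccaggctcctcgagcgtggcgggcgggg
Uso1 (chr5:92137818-92137937, plus strand): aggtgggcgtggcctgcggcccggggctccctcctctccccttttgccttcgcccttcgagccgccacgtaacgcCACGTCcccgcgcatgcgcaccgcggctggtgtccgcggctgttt
Kdelr3 (chr15:79516288-79516407, plus strand): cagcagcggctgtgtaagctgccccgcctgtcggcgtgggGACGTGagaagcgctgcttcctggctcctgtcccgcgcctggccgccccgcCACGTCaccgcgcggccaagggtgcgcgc
Hspa5 (chr2:34771970-34772089, plus strand): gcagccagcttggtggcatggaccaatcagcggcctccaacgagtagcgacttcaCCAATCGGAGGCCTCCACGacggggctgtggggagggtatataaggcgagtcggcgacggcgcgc

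GACGTG was found on either strand in the promoters of 20 of 40 members, in 45.7% of their windows, against 6.38% of all 32851 windows in the table and 8.97% of the 14800 windows of tested genes. In Sec24d it lies 25 to 20 bases before the start. Uso1 has it on the opposite strand at -45 to -40, and Kdelr3 holds it on both strands, at -80 to -75 and -29 to -24. Mcfd2 and Surf4 had no match in the window. Among members with a promoter, 9 of the 21 that were higher with CPA and 10 of the 18 tested ones that were not had a match. The full ER stress response element was in 0 of 40 members and in 0.119% of all windows. Its variant ERSE-II (ATTGG, 1 base, CCACG) was also in 0 members and in 0.0365% of windows. TGATGNAA, the letters of an ATF4-type element, occurred in 1 member, Kdelr1. That was 2.17% of member windows, against 2.32% of windows of tested genes and 3.97% of all windows. Hspa5, shown for comparison, holds the full element at -65 to -47. The match is of letters alone, and binding was not measured.

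Among COPII genes, Sec24d had the largest change. It encodes a cargo-binding subunit of the inner coat and lies on chromosome 3 at 123267455 to 123365641 (GRCm38, plus strand). In NIL at 12 h it was at 41.9 and 50.7 CPM untreated and at 134 and 160 with CPA, and in NIP at 56.4 and 44.9 CPM untreated and 187 and 175 with CPA. At 36 h the NIL libraries held 47.6 and 77.0 CPM untreated and 108 and 143 with CPA, and the NIP libraries 67.9 and 55.6, then 117 and 102. The CPA libraries were higher than the untreated ones in every line, time and replicate set, and no CPA library fell into the untreated range. Averaged, the log2 change was 1.34 ± 0.13 (SE; adjusted p = 2.42e-05). The single changes were 1.67 ± 0.27 in NIL at 12 h (adjusted p = 0.00539) and 1.84 ± 0.27 in NIP at 12 h (adjusted p = 0.00233). At 36 h they were 1.01 ± 0.27 in NIL (adjusted p = 0.0868, 0.012 with the replicate block) and 0.83 ± 0.27 in NIP (adjusted p = 0.15, 0.0422 with the block).

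Sec24d has 3 paralogs, which differ in the cargo signals that they bind. Per kilobase of transcript, the untreated median of the 12 h and 36 h libraries was 36.0 CPM per kb for Sec24c, 19.4 for Sec24b, 13.6 for Sec24d and 11.8 for Sec24a. Of these, Sec24d (10.7 to 19.7) overlapped both Sec24a (9.27 to 15.9) and Sec24b (17.1 to 20.9). With CPA the medians were 49.9 for Sec24c, 35.5 for Sec24d, 21.5 for Sec24b and 14.8 for Sec24a, and the Sec24d range of 26.1 to 47.9 was above that of Sec24b, 16.5 to 22.1. Sec24c rose by 0.43 ± 0.07 (adjusted p = 0.00092), from 146 to 186 CPM (median 161) in the 8 untreated libraries to 207 to 235 (median 222) in the 8 CPA libraries, without overlap. Sec24a rose by 0.40 ± 0.12 (adjusted p = 0.0332). Sec24b had a change of 0.05 ± 0.07 (adjusted p = 0.632).

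The SEC23 partners of SEC24, which make SAR1 hydrolyse its GTP, were both higher. Sec23b, at 20.0 CPM per kb the less abundant in untreated cells, rose by 0.59 ± 0.07 (adjusted p = 0.000114). Its 8 untreated libraries ran from 50.6 to 68.7 CPM (median 55.6) and its 8 CPA libraries from 65.9 to 129 (median 84.9), and the sole CPA library below the highest of those 8 was NIP 36 h replicate 2. In NIP at 12 h it went from 68.7 and 63.9 CPM to 129 and 104 (0.81 ± 0.15; adjusted p = 0.00713). Sec23a, at 36.9 CPM per kb untreated, rose by 0.33 ± 0.11 (adjusted p = 0.0448). Its change in NIP at 36 h was 0.04, and its lowest log2 ratio within a replicate set was -0.15.

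An outer coat gene, the exit site scaffold and the exchange factor of SAR1 also rose. Sec31a, the outer coat rod, ran from 124 to 191 CPM (median 143) untreated and from 161 to 272 (median 207) with CPA, a rise of 0.52 ± 0.11 (adjusted p = 0.00467). Sec16a, the scaffold on which COPII assembles, ran from 136 to 178 CPM (median 154) and from 167 to 255 (median 221), a rise of 0.47 ± 0.10 (adjusted p = 0.00453). Preb, the exchange factor that loads SAR1 with GTP, rose by 0.24 ± 0.06 (adjusted p = 0.017) from 71.6 to 87.1 CPM (median 75.3) to 80.5 to 97.7 (median 91.8). In each of these genes the ranges overlapped.

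The remaining COPII genes did not pass. Sec13, the other outer coat subunit and also a part of the nuclear pore, had a change of 0.08 ± 0.09 (adjusted p = 0.57). Sar1a (0.16 ± 0.07) and Sar1b (-0.06 ± 0.11), the coat's GTPases, had adjusted p of 0.133 and 0.731. Sar1b starts at 51763687 on the plus strand of chromosome 11 and Sec24a ends its minus-strand span at 51763634, by the outer spans of GENCODE M21. In the RefSeq table the starts are farther apart, with the Sec24a window at 51756785 to 51757084 and the Sar1b window at 51763413 to 51763712. Sec24a passed the test and Sar1b did not, and the difference between them was not tested. Sec31b was near the detection limit, at 5 to 49 reads per library, and changed by 0.45 ± 0.44 (adjusted p = 0.507).

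**Figure D2:**
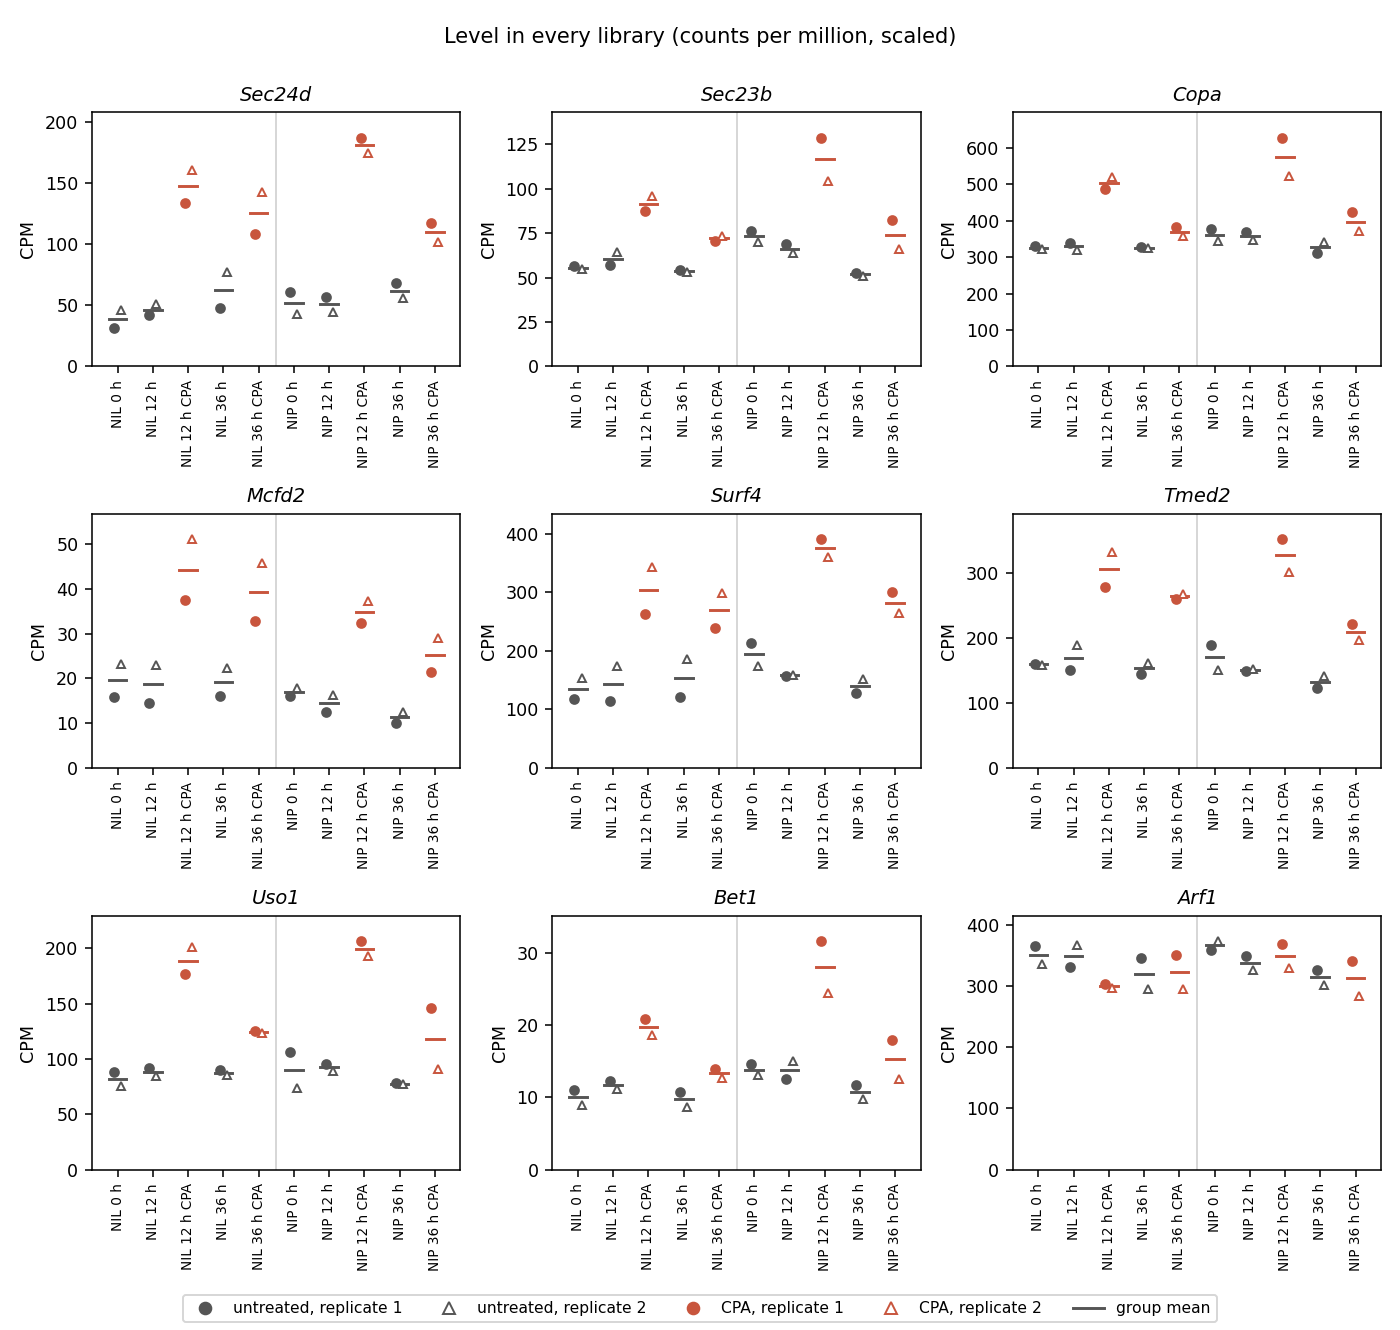
Level in CPM in each of the 20 libraries for 9 members; grey is untreated and red CPA, filled circles are replicate 1, open triangles replicate 2 and lines group means, with NIL on the left and NIP on the right of each panel. CPA libraries of Sec24d, Surf4 and Tmed2 lie above all untreated ones at 12 h and 36 h, while those of Arf1 lie among them.

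Cargo receptors as a class had the highest median change. All 12 had a positive change with CPA in both replicate sets in NIL at 12 h, in NIL at 36 h and in NIP at 12 h, and 11 of 12 in NIP at 36 h, where Kdelr3 was the exception in set 1. Mcfd2, the soluble partner with which LMAN1 exports coagulation factors and other glycoproteins, lies on chromosome 17 at 87254443 to 87265935 (minus strand). In NIL at 12 h it went from 14.4 and 22.9 CPM to 37.4 and 51.0 (1.25 ± 0.29; adjusted p = 0.0404), and in NIP at 12 h from 12.6 and 16.3 to 32.4 and 37.2 (1.28 ± 0.29; adjusted p = 0.0236). At 36 h it went from 16.1 and 22.4 to 32.7 and 45.7 CPM in NIL (adjusted p = 0.108, 0.000697 with the block) and from 10.1 and 12.4 to 21.5 and 29.0 in NIP (adjusted p = 0.0623, 0.000201 with the block). In each of the 4 comparisons the groups did not overlap, although set 2 was higher than set 1 at every one. The averaged change was 1.18 ± 0.15 (adjusted p = 0.000114).

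Surf4, a receptor for soluble cargo such as lipoproteins, lies on chromosome 2 at 26920040 to 26933928 (minus strand) and overlaps Surf2 on the other strand. It was at 114 and 174 CPM in untreated NIL at 12 h and at 263 and 344 with CPA (1.08 ± 0.25; adjusted p = 0.044), and at 158 and 159 CPM in untreated NIP and at 391 and 361 with CPA (1.25 ± 0.25; adjusted p = 0.0141). At 36 h it held 121 and 185 CPM, then 239 and 299.5 with CPA, in NIL, and 128 and 153, then 300.2 and 264, in NIP. No CPA library fell into the untreated range. Its averaged change was 1.04 ± 0.13 (adjusted p = 0.000101).

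Tmed2, a p24 protein that cycles between ER and Golgi, was the sole member called in NIL at 36 h. There it went from 145 and 162 CPM to 261 and 268 (0.78 ± 0.17; adjusted p = 0.0496). At 12 h it went from 150 and 189 to 279 and 333 CPM in NIL (0.85 ± 0.17; adjusted p = 0.0182) and from 149 and 153 to 352 and 302 in NIP (1.11 ± 0.17; adjusted p = 0.00275). In NIP at 36 h it went from 124 and 141 to 222 and 196 CPM (0.66 ± 0.17; adjusted p = 0.0628, 0.016 with the block). CPA libraries again stood above every untreated one, and the averaged change of 0.85 ± 0.08 had the smallest adjusted p of all members (2.23e-05).

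The other 4 p24 genes on the member list also rose. Tmed9 ran from 56.1 to 98.8 CPM (median 62.3) in the 8 untreated libraries of 12 h and 36 h and from 95.5 to 145 (median 117) in the CPA libraries, a rise of 0.77 ± 0.12 (adjusted p = 0.000729). Tmed3 rose by 0.81 ± 0.20 (adjusted p = 0.0105), Tmed10 by 0.45 ± 0.09 (adjusted p = 0.0043) and Tmed7 by 0.37 ± 0.11 (adjusted p = 0.0342). Per kilobase Tmed10 was the most abundant of the 5 untreated, with a median of 108 CPM per kb, followed by Tmed2 at 72.3, Tmed7 at 62.2, Tmed9 at 43.0 and Tmed3 at 22.8. With CPA, Tmed2 reached 132 and Tmed10 149. Of the p24 genes off the list, Tmed5 was higher (0.62 ± 0.14; adjusted p = 0.00569), while Tmed1 (-0.25 ± 0.19), Tmed4 (0.10 ± 0.06) and Tmed8 (0.05 ± 0.09) did not pass.

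The lectin receptors also rose. Lman1 (ERGIC-53), the mannose lectin that works with MCFD2, ran from 67.0 to 110 CPM (median 86.3) untreated and from 97.7 to 200 (median 152) with CPA, a rise of 0.76 ± 0.10 (adjusted p = 0.00017). In NIL at 12 h it went from 87.6 and 105 CPM to 145 and 200 (adjusted p = 0.0431), and in NIP from 83.7 and 91.5 to 172 and 158 (adjusted p = 0.0189). Lman2 (VIP36) ran from 75.4 to 131 CPM (median 89.4) and from 113 to 184 (median 147), a rise of 0.68 ± 0.14 (adjusted p = 0.00417).

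The 3 KDEL receptors return ER chaperones that reach the Golgi. Untreated, Kdelr1 had a median of 50.9 CPM per kb, Kdelr2 37.8 and Kdelr3 14.1, and with CPA 61.3, 74.7 and 31.0, with overlapping ranges. Kdelr2 rose by 0.80 ± 0.18 (adjusted p = 0.00632). In NIP at 12 h its libraries went from 63.5 and 69.6 CPM to 143 and 130, and in NIL from 68.8 and 112 to 127 and 189. Kdelr1 changed by 0.28 ± 0.11 (adjusted p = 0.085, 0.00616 with the block). Kdelr3 changed by 0.88 ± 0.62 (adjusted p = 0.346, 0.0328 with the block). Whether the 3 changes differ from each other was not tested.

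**Figure D3:**
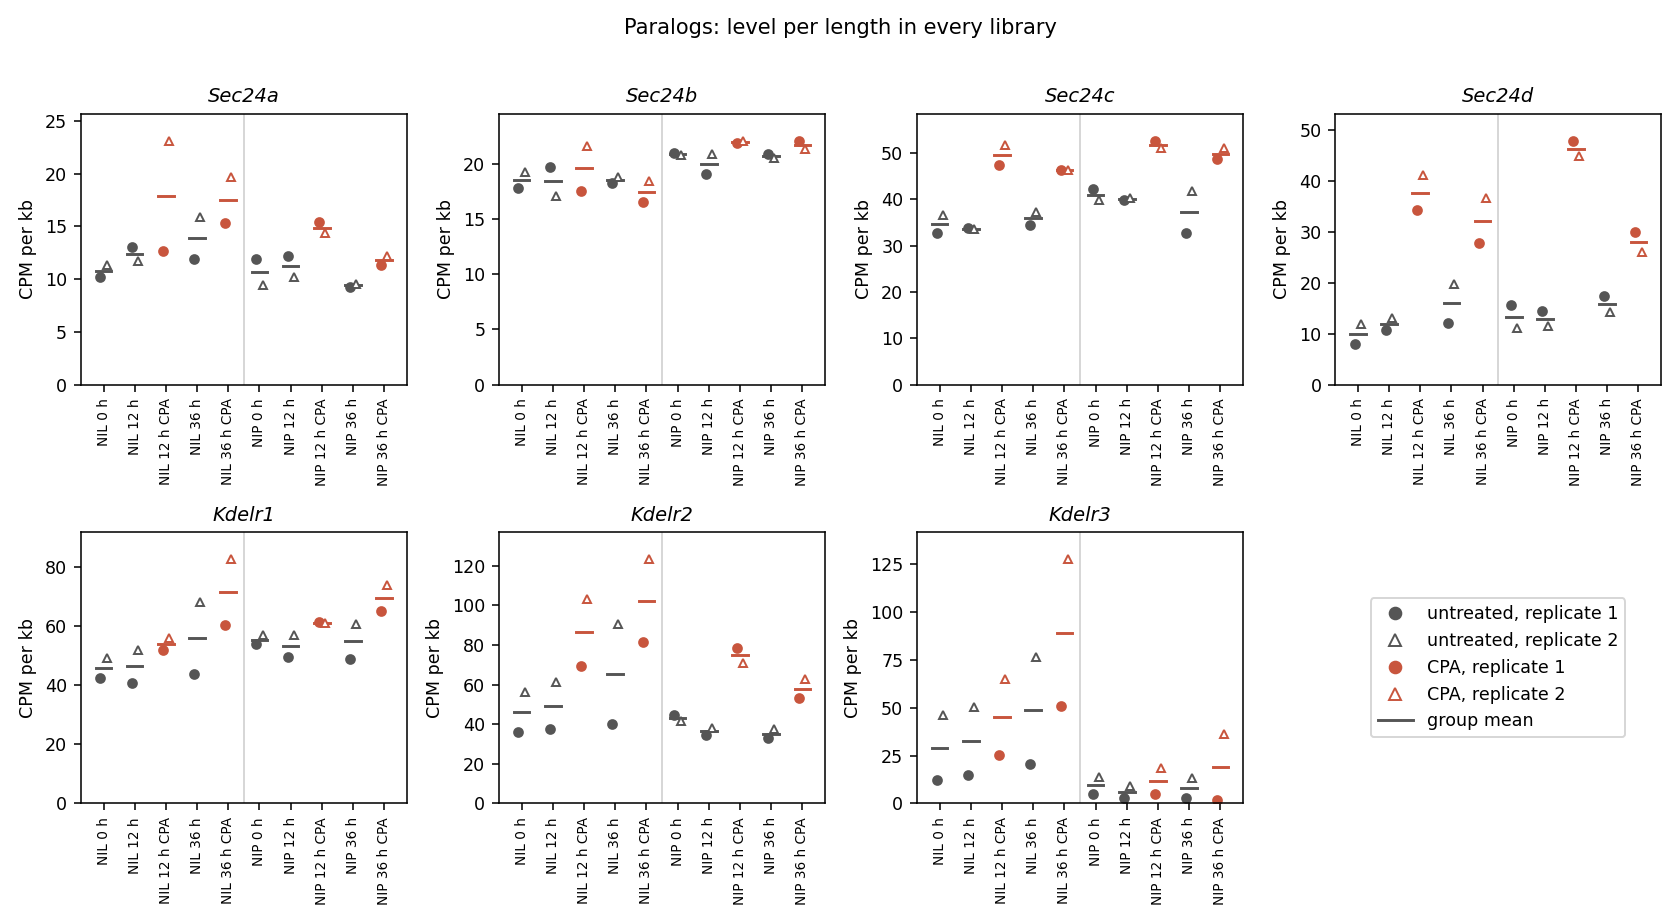
Level per length, in CPM per kb of the longest coding transcript, of the 4 SEC24 paralogs and the 3 KDEL receptors in each library; symbols as in the plot of levels by library. Group means of Sec24d and Kdelr2 with CPA lie above those of untreated cells of the same line and time, Sec24b stays between 16.5 and 22.1, and Kdelr3 is split by line and replicate.

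Kdelr3 varied most by line and replicate set. It was at 17.3 to 180 CPM in the NIL libraries and at 2.20 to 51.3 in the NIP libraries. With CPA at 36 h the NIP libraries went in opposite directions, from 3.93 to 2.20 CPM in set 1 and from 18.5 to 51.3 in set 2. Its lowest and highest levels fell in the libraries with the lowest and highest summed endoderm and endothelium markers. These were CPA-treated NIP 36 h replicate 1 (marker sum 431 CPM) and CPA-treated NIL 36 h replicate 2 (marker sum 32270 CPM). The sum of proliferating cell markers was also lowest and highest in these libraries, at 33.8 and 673.5 CPM. That of pluripotent stem cell markers was highest in the latter, at 726.5 CPM. Between the replicate sets, 18 of 44 members differed in the fit with the block, where 49.2% of all genes did. In set 2 over set 1, Kdelr3 was higher by a log2 difference of 1.92. Copz2 was higher there by 1.23, Sec31b by 1.11, Tmed3 by 0.51, Mcfd2 by 0.41 and Kdelr2 by 0.40. The part of endodermal, proliferating or pluripotent cells in the levels of these members was not tested.

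With CPA the endoderm and endothelium sum moved differently by line and set. In NIP it changed by a log2 ratio of -0.68 at 12 h and -0.61 at 36 h in set 1, and by 0.24 and 1.23 in set 2. In NIL it was higher in both sets, by 0.25 and 0.64 at 12 h and by 1.52 and 0.82 at 36 h. For comparison, in NIP Sec24d changed by 1.72 and 0.78 in set 1 and by 1.95 and 0.87 in set 2, and Mcfd2 by 1.34 and 1.05 and by 1.17 and 1.19. Surf4 changed by 1.31 and 1.23 in set 1 and by 1.18 and 0.79 in set 2. The sum of pluripotent stem cell markers, 14.4 to 727 CPM over the libraries, also moved with CPA. It changed by 1.72 and 0.94 in the sets of NIL at 36 h and by 0.27 and 1.41 in those of NIP at 36 h. Klf4, with a median of 28.4 CPM and a highest level of 381, makes up much of that sum. The other markers of the list had medians from 0.14 CPM (Fgf4) to 7.68 (Esrrb). The part of any of these cell types in the members' changes with CPA was not tested.

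**Figure D4:**
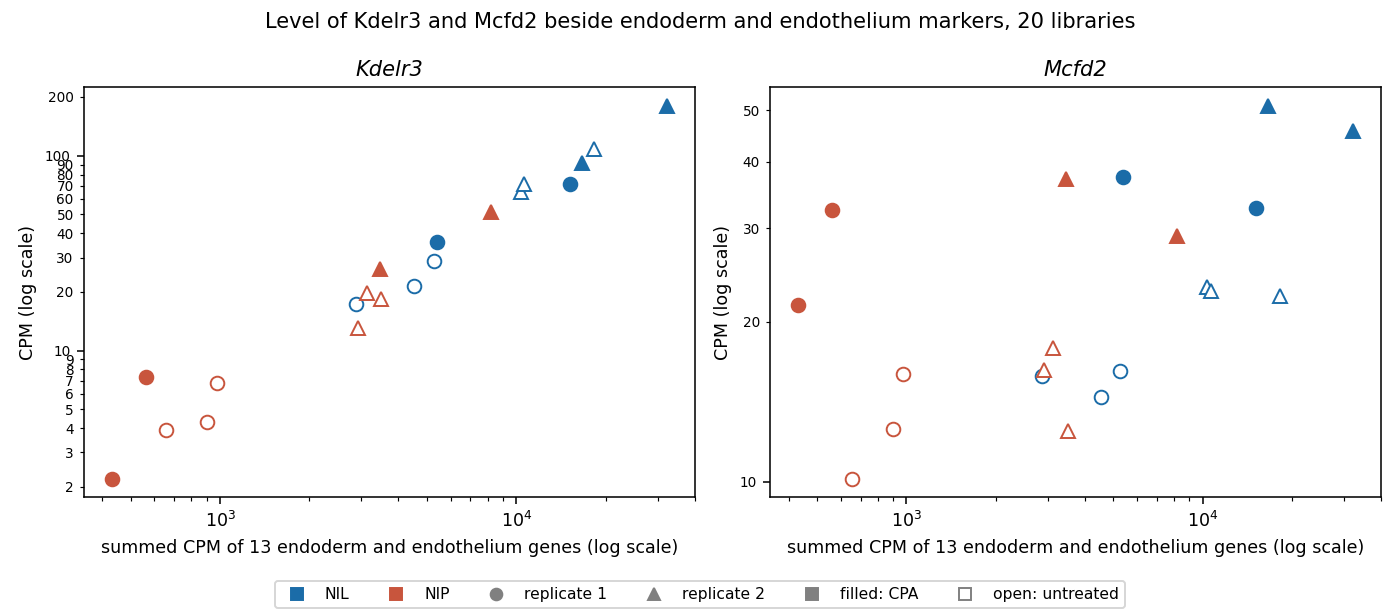
CPM of Kdelr3 (left) and Mcfd2 (right) against the summed CPM of 13 endoderm and endothelium genes in the 20 libraries, all axes on a log scale; blue is NIL, red NIP, circles replicate 1, triangles replicate 2, filled CPA and open untreated. Kdelr3 has its lowest and highest level, 2.20 and 180 CPM, at the ends of the marker sum. For Mcfd2 the CPA libraries lie above untreated ones of similar marker level.

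Tethers and SNAREs, which catch and fuse the vesicles, rose except for Golga2. Uso1, the p115 tether (chromosome 5, 92137938 to 92202798, plus strand), went in NIL at 12 h from 91.8 and 84.2 CPM to 177 and 201 (1.10 ± 0.21; adjusted p = 0.0139), and in NIP from 95.2 and 89.6 to 207 and 193 (1.11 ± 0.21; adjusted p = 0.00959). At 36 h it went from 89.9 and 85.5 to 125 and 123 CPM in NIL and from 77.9 and 77.1 to 146 and 91.1 in NIP. The last of these, NIP 36 h replicate 2, was the sole CPA library within the untreated range. The averaged change was 0.83 ± 0.10 (adjusted p = 0.000128).

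Of the SNAREs, Bet1 ran from 8.66 to 15.1 CPM (median 11.4) untreated and from 12.6 to 31.6 (median 18.3) with CPA, a rise of 0.69 ± 0.11 (adjusted p = 0.000736). In NIP at 12 h it went from 12.5 and 15.1 CPM to 31.6 and 24.4 (1.02 ± 0.21; adjusted p = 0.016). Stx5a, the syntaxin that pairs with BET1, ran from 35.8 to 63.2 CPM (median 39.5) and from 41.9 to 104 (median 68.6), a rise of 0.68 ± 0.14 (adjusted p = 0.00426). Gosr2 (0.26 ± 0.07; adjusted p = 0.0182) and Sec22b (0.25 ± 0.07; adjusted p = 0.0286), which complete SNARE complexes of this step, rose less. Gosr2 ran from 93.8 to 115 CPM (median 99.5) and from 99.2 to 149 (median 120), and Sec22b from 55.3 to 69.7 (median 61.5) and from 52.3 to 87.1 (median 79.0). Their calls did not hold with every library left out, with an adjusted p of 0.0869 for Gosr2 and 0.0996 for Sec22b without untreated NIL 36 h replicate 2. Golga2 (GM130), the Golgi matrix protein that binds p115, had a change of -0.00 ± 0.07.

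In the COPI coat, Copa and Copb1 passed. Copa encodes the largest subunit, which binds retrieval signals, and lies on chromosome 1 at 172082529 to 172122330 (plus strand), overlapping Ncstn on the other strand. In NIL at 12 h it went from 340 and 321 CPM to 487 and 519 (0.61 ± 0.15; adjusted p = 0.0491), and in NIP from 368 and 348 to 627 and 523 (0.68 ± 0.15; adjusted p = 0.0175). At 36 h it went from 327 and 324 to 382 and 358 CPM in NIL and from 311 and 343 to 422 and 371 in NIP, where neither change passed. The averaged change was 0.44 ± 0.07 (adjusted p = 0.00103). Copb1 ran from 114 to 139 CPM (median 123) and from 109 to 212 (median 153), a rise of 0.34 ± 0.10 (adjusted p = 0.0241). Its call was lost without each of 6 libraries in turn, with the highest adjusted p, 0.0727, without untreated NIL 36 h replicate 2.

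The other COPI subunits changed by -0.05 to 0.47 without passing. Arcn1, the delta subunit, changed by 0.29 ± 0.11 (adjusted p = 0.0699, 0.013 with the block), Copb2 by 0.20 ± 0.10 and Copg2 by 0.22 ± 0.09. Copg1 (0.05 ± 0.08), Cope (0.07 ± 0.10) and Copz1 (-0.05 ± 0.07) had adjusted p of 0.658 to 0.694. Copz2, a minor zeta isoform at 4.75 CPM per kb against 47.1 for Copz1 in untreated cells, changed by 0.47 ± 0.42 (adjusted p = 0.459, 0.0242 with the block).

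The GTPases that recruit COPI and their exchange factor were near 0. Arf1 was the most abundant member per length, with an untreated median of 165 CPM per kb and a CPA median of 159. In CPM it ran from 296 to 367 untreated and from 285 to 369 with CPA, a change of -0.04 ± 0.08 (adjusted p = 0.743). Arf4 changed by 0.07 ± 0.12 and Gbf1, the exchange factor that activates ARF at the early Golgi, by 0.04 ± 0.08. Arf5 was the lone member called lower with CPA on average, and that with the block only, at -0.23 ± 0.12 (adjusted p = 0.2, 0.0472 with the block). At 12 h it went from 72.4 and 116 CPM to 66.3 and 59.0 in NIL and from 76.3 and 90.4 to 64.4 and 66.4 in NIP. At 36 h it went from 84.3 and 115 CPM to 84.7 and 101 in NIL and from 71.9 and 79.4 to 71.4 and 93.0 in NIP. At 12 h the CPA libraries were below the untreated ones of their line. At 36 h they lay among them in NIL, while in NIP replicate 1 was below both untreated libraries and replicate 2 above both.

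By line and time, 7 members were higher and 0 lower in NIL at 12 h, where 1.55% of all genes were higher (17 members with the block, 4.16% of genes). The 7 were Sec24d, Copa, Tmed2, Mcfd2, Lman1, Surf4 and Uso1. In NIP at 12 h 10 were higher, where 2.96% of genes were, namely those 7 with Sec23b, Tmed9 and Bet1 (19 with the block, 7.54% of genes). At 36 h 1 member, Tmed2, was higher in NIL, against 0.446% of genes (11 with the block, 7.25% of genes). In NIP at 36 h 0 were, against 1.33% of genes, with 13 at an unadjusted p under 0.05, 4 by DESeq2 and 9 with the block (5.1% of genes). These calls on 2 libraries against 2 were fragile. Without 1 library the count was 0 to 3 in NIL at 12 h and 1 to 6 in NIP at 12 h, where Sec24d was the gene called with any of the 4 libraries left out.

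The size of the response was lower at 36 h than at 12 h in median, but the change with time did not pass for any member. The median log2 change of the members was 0.48 at 12 h and 0.32 at 36 h in NIL, and 0.46 and 0.31 in NIP, against -0.03 to 0.03 over all genes. The response at 36 h less that at 12 h had a median of -0.17 in NIL and -0.20 in NIP, and 0 members passed in either (0.00676% and 0.0135% of all genes did; edgeR gave 0 and 1 members at an unadjusted p under 0.05, DESeq2 0 called and 2 and 6 unadjusted). Sec24d had the most negative difference of all members in both lines, -0.66 ± 0.37 in NIL (adjusted p = 0.97) and -1.01 ± 0.37 in NIP (adjusted p = 0.686). Arf5 had the most positive, 0.48 ± 0.34 in NIL and 0.47 ± 0.34 in NIP. Mcfd2 differed by -0.23 ± 0.41 and -0.12 ± 0.41.

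No member's response to CPA differed between the lines at the adjusted threshold. At 12 h and at 36 h 0 members passed, also with the block and by DESeq2, with 0 at an unadjusted p under 0.05 by either tool, and 0% of all genes passed in edgeR (0% and 0.128% with the block). The difference, NIP less NIL, at 12 h ran from -0.68 ± 1.24 at Sec31b to 0.48 ± 0.40 at Stx5a, and at 36 h from -0.63 ± 1.26 at Sec31b to 0.31 ± 1.73 at Kdelr3. For Sec24d it was 0.17 ± 0.37 and -0.19 ± 0.37, and for Uso1 0.01 ± 0.29 and 0.11 ± 0.30. With these errors a difference of the size of the responses themselves could have been missed for several members.

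Untreated NIL and NIP cells differed in few members. At 0 h, 12 h and 36 h 0 of 44 passed, where 12.5%, 12% and 11.6% of all genes did, with 1, 1 and 8 members at an unadjusted p under 0.05, 0, 1 and 3 by DESeq2, and 3, 3 and 6 with the block (26.3%, 27.9% and 28.8% of genes). Averaged over the 3 times, 2 members were higher in NIP, where 18.3% of genes were, and 3 lower, where 17.2% were (6 and 6 with the block, 25.6% and 24.7% of genes). The members' share was thus below that of all genes.

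Copz1, the common zeta subunit of COPI, was lower in NIP by -0.33 ± 0.09 (adjusted p = 0.00876), and this call held with any of the 12 untreated libraries left out. Its NIL libraries held 151 and 146 CPM at 0 h, 126 and 143 at 12 h and 142 and 114 at 36 h, and the NIP libraries 111 and 130, 102 and 116, and 95.9 and 99.5. Golga2 was higher in NIP by 0.30 ± 0.08 (adjusted p = 0.0108). It was at 93.6 and 87.6 CPM in NIL and 90.8 and 97.4 in NIP at 0 h, at 92.8 and 83.5 against 113 and 120 at 12 h, and at 85.0 and 89.4 against 110 and 125 at 36 h, so that the groups overlapped at 0 h and not later. The Golga2 call reached an adjusted p of 0.0711 without NIL 0 h replicate 2. Sec13 was lower in NIP by -0.28 ± 0.10 (adjusted p = 0.0482), and Kdelr3 by -2.20 ± 0.74 (adjusted p = 0.0341). Sec31b was higher by 1.69 ± 0.53 (adjusted p = 0.0236) on 5 to 49 reads per library. Each of the last 3 calls was lost without several single libraries, with adjusted p of up to 0.113, 0.0968 and 0.0729. The endoderm and endothelium sum was lower in NIP by a log2 ratio of -1.56 to -3.01 over the sets and times. Other lists were also lower in NIP, pluripotent stem cell markers by -0.89 to -3.04, those of proliferating cells by -1.50 to -2.51 and those of mesenchyme, at a summed 1.83 to 23.2 CPM, by -1.38 to -2.77. Higher in NIP were the sums of the neuron and motor neuron list, by 0.12 to 0.76, and of the neural progenitor list, by 0.01 to 0.77. In the neuron list, Isl1, Isl2, Mnx1, Lhx3, Chat and Slc18a3 had lower medians in NIP. The progenitor sum rests mainly on Vim, with medians of 513 CPM in NIL and 656 in NIP, CPA libraries included. Nes was also higher in NIP, while Sox2 (10.7 CPM in NIL, 0.70 in NIP), Pax6, Fabp7, Hes5 and Hes1 were lower. The sum of glia markers, 7.87 to 35.2 CPM, was also higher, by 0.40 to 1.08. It rests mainly on Mbp, with medians of 9.07 CPM in NIL and 16.8 in NIP. Slc1a3 (2.89 CPM in NIL, 0.34 in NIP) and Olig1 (0.51 and 0.24) went the other way, and Gfap and Sox10 had medians of 0. The sum of blood and microglia markers differed by -1.64 to 0.09. The part of these cells in the differences of Kdelr3 and the other members between the lines was not tested.

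Time without CPA moved few members. From 0 h to 36 h 0 passed in NIL, against 0.027% of genes (2 at an unadjusted p under 0.05, 1 by DESeq2 and 1 with the block, against 0.94% of genes). In NIP 0 passed, against 1.29% of genes (6 unadjusted, 1 by DESeq2 and 4 with the block, against 9.09% of genes). Copg2, the minor gamma subunit of COPI, which overlaps the imprinted gene Mest on the other strand, went from 44.4 and 42.8 CPM to 26.6 and 21.4 in NIL (-0.86 ± 0.19; adjusted p = 0.167, 0.0294 with the block). In NIP it went from 37.6 and 37.6 to 26.7 and 26.7 CPM (-0.49 ± 0.19; adjusted p = 0.228, 0.0895 with the block). The groups did not overlap in either line. In NIP, Sec23b went from 76.4 and 69.9 CPM to 52.8 and 50.6 (-0.50 ± 0.15; adjusted p = 0.12, 0.0362 with the block), opposite to its change with CPA.

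Among 86 other genes of the same route, 84 were tested, and 23 were higher and 6 lower with CPA on average, with a median log2 change of 0.10. Over all tested genes, 9.84% were higher and 11.3% lower, and the counts of the smaller groups below are to be read against these shares. A mixed list of other ER exit site and COPII factors, which includes the transcription factors Creb3, Creb3l1 and Creb3l2, was higher in 6 of 13 (median 0.38). Among them were Creb3l2 (1.46 ± 0.34, adjusted p = 0.00896), known to control Sec23a in cartilage, and Mia3 (0.38 ± 0.09, adjusted p = 0.00929), which loads collagen into COPII carriers. Golgins and matrix proteins were higher in 6 of 11 (median 0.26), such as Gorasp2 (0.55 ± 0.07) and Golga4 (0.45 ± 0.06). The Dsl1 tether, which receives COPI vesicles at the ER, was higher in 3 of 4 genes, with Nbas at 0.72 ± 0.10 and Rint1 at 0.46 ± 0.10.

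In the other groups the counts were small and several lay near the shares of all genes. Of 12 further cargo receptors 3 were higher, with Cnih4 at 0.41 ± 0.07, and 1, Cnih2, which also binds AMPA receptors in neurons, was lower (-1.10 ± 0.14; adjusted p = 0.000127). Of 10 other SNAREs 2 were higher, Stx18 (0.51 ± 0.07) and Bet1l (0.78 ± 0.16), and 1 lower. Of 12 Rab, Arf and ArfGAP genes 1 was higher, Arfgap3, which triggers GTP hydrolysis on ARF (0.82 ± 0.09; adjusted p = 3.02e-05), and 2 lower, among them Arf3 (-0.38 ± 0.09). The TRAPP tethering complex had 0 of 14 higher and 2 lower, Trappc1 (-0.45 ± 0.09) and Trappc2 (-0.69 ± 0.17), and COG had 2 of 8 higher, Cog3 (0.44 ± 0.10) and Cog6 (0.33 ± 0.08).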

How the data were processed

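RNA was depleted of ribosomal RNA and sequenced, per the labels. The authors deposited raw read counts per gene symbol for each library, and the submitters' processing notes list HTSeq 0.6.1p1, TopHat2 2.1.1, Picard, Bowtie2 2.3.2 and the build GRCm38 (mm10). The strand setting and the annotation are not given in the sources used here, so reads of overlapping genes cannot be assigned (Kdelr3 and Ddx17, Copa and Ncstn, Surf4 and Surf2, Golga2 and Swi5, Arf4 and Pde12, Arf5 and Gcc1, Copg2 and Mest, Kdelr1 and Grin2d, Sec31b and Gm20538). Reads mapping to several places, 18.2% to 52.6%, were not counted to genes, so close paralogs may be undercounted. Reads that overlapped no counted feature (7.77% to 18.7%) and ambiguous ones (0.156% to 0.458%) were not counted either. In each group the replicates' counts differed beyond sampling noise.

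edgeR 4.0.16 (R 4.3.3) filtered genes with filterByExpr by group, which left 14792, scaled libraries by TMM and fitted 1 robust quasi-likelihood model over 10 groups (biological coefficient of variation 27.5%, 10 residual degrees of freedom). P-values of 15 comparisons were adjusted over all tested genes within each, with a threshold of 0.05. An averaged contrast is the mean of the single ones. CPM per kb divides by the longest coding transcript of GENCODE M21. In simulated counts, 26% of changes of log2 1 and 90% of log2 2 were recovered for NIL at 12 h (14185 genes), with 4.92% false. The replicate numbers come from the titles, and deviations of same-numbered libraries correlated in all 45 pairs of groups (r 0.29 to 0.818), so the block is given where it changed a call (coefficient of variation 15.7%).

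Members and lists were chosen with earlier results of these data known. Named in full were up to 6 called members per class for CPA and up to 4 for other comparisons, by smallest p, and up to 2 genes per pathway list. Kdelr1 to Kdelr3 and the members that did not pass were named as paralogs or for completeness. Alternatives were the replicate block, DESeq2 1.42.0, its size factors, no filter on low counts, Rn45s left out, both high-Rn45s libraries left out, single lines, and each library left out in turn. Protein sequences were not used here.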

Additional observations from a re-analysis of the deposited data

How the results depend on the processing

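The number of members called with CPA on average was 25 (30 with the replicate block, 26 by DESeq2, 23 without the low-count filter, 18 without both high-Rn45s libraries, 19 to 26 with 1 library left out). Of the 19 members named in full for it, 16 kept their call with any library left out and 15 under every other alternative. Preb, Copb1 and Gosr2 lost it without both high-Rn45s libraries and Sec22b without the filter, and no direction turned. The other called members, Sec23a, Sec24a, Kdelr2, Tmed3, Tmed7 and Tmed10, were not followed singly through the alternatives. Calls over all genes moved too, on average from 3123 to 5752 with the block and 3717 by DESeq2. For NIL at 12 h they were 327 (1174 with the block, 713 by DESeq2, 124 with NIL libraries alone), and at 36 h 145 (2697, 700 and 4). For NIP at 12 h they were 696 (2083 with the block, 1151 by DESeq2, 763 with NIP libraries alone), and at 36 h 344 (1517, 708 and 491). The member counts for single comparisons moved more than the averaged one. For NIL at 12 h, 7 became 17 with the block, 11 by DESeq2, 3 without both high-Rn45s libraries, 1 with NIL libraries alone and 0 to 3 with 1 library left out. For NIL at 36 h, 1 became 11 with the block, 5 by DESeq2, and 0 with DESeq2's size factors, without the filter, without both high-Rn45s libraries, with NIL libraries alone or with any 1 library left out (0 to 0). For NIP at 12 h, 10 became 19 with the block, 14 with NIP libraries alone, 13 by DESeq2 and 1 to 6 with 1 library left out. For NIP at 36 h, 0 became 9 with the block, 4 by DESeq2 and with NIP libraries alone, 2 without the filter or without Rn45s, and 0 to 1 with 1 library left out. Between untreated lines, 0 became 3 at 0 h and 3 at 12 h with the block (1 by DESeq2 at 12 h), and at 36 h 6 with the block, 3 by DESeq2 and 0 to 1 with 1 library left out; averaged, 5 became 12 with the block, 3 without the filter, 2 without both high-Rn45s libraries and 2 to 7 with 1 library left out. From 0 h to 36 h untreated, 0 became 1 in NIL with the block and by DESeq2, and in NIP 4 with the block and 1 by DESeq2. Over all genes, DESeq2 called 2237, 2278 and 2353 between untreated lines at 0 h, 12 h and 36 h, and 5764 averaged. From 0 h to 36 h untreated it called 97 in NIL and 640 in NIP. Differences of members' response between lines and times stayed at 0 under each alternative run. The causes were not tested. Leaving out a library leaves 1 in its group, assumed to vary like the others. In the simulated counts, whose spread came from a trend over genes, 26% of log2 changes of 1 were recovered for NIL at 12 h. Changes near that size can thus be missed in a single comparison with 2 libraries a group, although several members near it were called in the data.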
